A study of Mus musculus with 622 samples.

Results

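The subject is 10 protein-coding genes of the mouse mitochondrial genome, chosen by their Entrez gene IDs from a table of 44448 genes measured in 622 single cells. They encode 4 subunits of respiratory complex I (ND1, ND2, ND4 and ND5), the cytochrome b subunit of complex III (CYTB), 3 subunits of complex IV (COX1, COX2 and COX3) and 2 subunits of the ATP synthase, complex V (ATP6 and ATP8). All 10 were found. The rule that picks them uses IDs and no levels, but it was set with earlier results of these data known. The table lists 37 genes of that genome in all, among them 3 other protein genes (ND3, ND4L and ND6), 2 ribosomal RNAs and 22 transfer RNAs.

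The cells came from pancreatic islets of wild-type mice of the C57BL/6 strain, and the labels give every cell the same strain, tissue and genotype, with no treatment. Cells were captured singly on a C1 microfluidic chip, their RNA was made into cDNA with the SMARTer Ultra Low kit, and Nextera XT was used for the libraries. The labels name no animal, age, sex or chip. A cell is therefore not a replicate of a condition, so no test was run and no p-value is given. Values below are medians over cells with quartiles or with the lowest and highest cell.

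Expression was given as RPKM, reads scaled to the length of the gene and to the mapped reads of the cell, a scale on which levels of genes of unequal length can be compared. The RPKM sum over all genes ran from 433550 to 1437838 per cell, so a level and a share can differ in direction between groups. A cell counted as passing if 1000 or more of its genes reached 1 RPKM, which 593 cells did and 29 did not. Passing cells were grouped by the hormone that held at least 90% of the summed RPKM of Ins1, Ins2, Gcg, Sst and Ppy. This gave 33 glucagon cells, 13 somatostatin cells, 11 pancreatic polypeptide (PP) cells, 141 mixed cells in which no hormone reached that share, and 395 insulin cells. The 29 cells below 1000 genes held between 161 and 991 genes. The median number of genes was 4576 in glucagon cells, 4371 in somatostatin cells, 3798 in PP cells, 5771 in mixed cells and 5259 in insulin cells.

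Markers other than the 5 hormones were looked at for each group. The summed RPKM of 5 alpha cell markers without Gcg had a median of 11829 in glucagon cells (386 to 52774), against 383 in insulin cells (0 to 4914). The sum of 3 delta cell markers without Sst was 2533 in somatostatin cells (56.5 to 12455), against 0.493 in insulin cells (0 to 1304). Pyy was at 65914 RPKM in PP cells and nearly as high in somatostatin cells, at 56792, with 5807 in glucagon and 10.8 in insulin cells. The sum of 8 beta cell markers without the insulin genes was 1111 in glucagon, 28153 in somatostatin, 172 in PP and 31172 in mixed cells, against 62786 in insulin cells. The lists thus overlapped between groups, above all for somatostatin cells. Marker sums of acinar, endothelial, erythroid, glial and stellate cells had a median of 0 in every group, and those of immune cells in every group but somatostatin cells, at 1.05. The sum of 3 ductal markers had a median of 50.5 in glucagon, 0.615 in somatostatin, 171 in PP and 5.43 in mixed cells, against 0.375 in insulin cells, and 2 of the 3 were at a median of 0. Single cells reached a summed 143126 RPKM of acinar markers and 45239 RPKM of immune markers, both in the mixed group.

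The number of mapped reads, worked out from the values of the mitochondrial genes, ranged from 2461 to 6111797 per cell with a median of 1115381. It could not be found for 4 cells. The 10 genes held a median of 75488 reads per cell, from 187 to 3537485, so counting error on the 10-gene sum of the median cell was small. In the table, 359 cells have unrounded values (full precision in the figures) and 263 have values rounded to 4 decimals, a split that the labels do not mention. Among the rounded columns, the 93 cells numbered 363 to 455 stood apart in several of the 10 genes, a stretch of numbers that was chosen after the values were seen. Whether either split marks a chip, an animal or a run is unknown. Values within these sets are given for many results but not for all, so a value without a split may differ between them.

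Mitochondria keep a small circular genome that is transcribed from both strands into long precursors. Transfer RNAs lying between the genes are cut out of them, which frees the individual messenger RNAs, and these differ afterwards in how long they last. Each protein made from them joins a complex whose remaining subunits are encoded in the nucleus. In beta cells the ATP that these complexes produce closes potassium channels and so couples glucose to insulin release.

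The 10 genes lie on the same strand of the mitochondrial chromosome of GRCm38 in the order ND1 (MT:2751-3707), ND2 (MT:3914-4951), COX1 (MT:5328-6872), COX2 (MT:7013-7696), ATP8 (MT:7766-7969), ATP6 (MT:7927-8607), COX3 (MT:8607-9390), ND4 (MT:10167-11544), ND5 (MT:11742-13565) and CYTB (MT:14145-15288). Their lengths run from 204 bases for ATP8 to 1824 for ND5. All are single-exon genes, and the end of ATP8 overlaps the start of ATP6 by 43 bases. A nuclear pseudogene on the minus strand of chromosome 1, Gm10925 (chr1:24613974-24614651), has the first 678 of the 681 bases of the ATP6 gene with 0 mismatches and has its own row in the table. The 3 sequences are shown because reads from them can be counted under more than 1 gene: the 43 shared bases of ATP8 and ATP6 are in capitals, and the first 120 bases of ATP6 and of Gm10925 are given, from RefSeq for ATP8 and ATP6 and from the GENCODE M21 transcript for Gm10925, all 5′ to 3′ on GRCm38.
ATP8 (MT:7766-7969): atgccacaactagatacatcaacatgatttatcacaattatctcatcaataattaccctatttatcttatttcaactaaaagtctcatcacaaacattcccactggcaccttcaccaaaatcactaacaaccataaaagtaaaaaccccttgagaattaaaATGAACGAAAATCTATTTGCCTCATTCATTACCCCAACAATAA
ATP6 (MT:7927-8046): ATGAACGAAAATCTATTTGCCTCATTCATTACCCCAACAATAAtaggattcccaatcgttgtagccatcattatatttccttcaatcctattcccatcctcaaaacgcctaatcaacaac
Gm10925 (chr1:24614532-24614651, minus strand): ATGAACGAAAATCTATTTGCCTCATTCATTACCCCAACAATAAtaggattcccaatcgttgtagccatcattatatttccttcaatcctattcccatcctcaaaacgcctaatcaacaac

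The summed share of the 10 genes was several times higher in cells below 1000 genes than in any hormone group, and among the hormone groups its order depended on the set of columns. Over all columns the hormone groups lay close together. The 10 genes took a median of 12.5% of a glucagon cell's RPKM (quartiles 8.02% to 23.5%, range 3.85% to 32.8%). Somatostatin cells had 8.65% (quartiles 5.87% to 12.2%, range 2.83% to 31.7%). PP cells had 10.1% (quartiles 4.16% to 15.0%, range 2.93% to 46.4%). Glucagon cells had the highest median, and the quartile ranges of these groups overlapped one another. Mixed cells had 8.01% (quartiles 6.06% to 14.0%, range 1.39% to 70.5%) and insulin cells 9.10% (quartiles 6.47% to 13.7%, range 0.0878% to 73.9%). Every hormone group therefore lay within the range of the insulin cells, whose own cells differed far more than the group medians did.

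The order of the medians was not the same in both sets of columns. In the unrounded columns the median share was 16.6% in 17 glucagon cells, 5.65% in 6 somatostatin cells and 11.1% in 6 PP cells, against 9.38% in 226 insulin cells. In the rounded columns it was 9.18% in 16 glucagon cells, 12.1% in 7 somatostatin cells and 3.04% in 5 PP cells, against 8.57% in 169 insulin cells. Glucagon cells were thus above insulin cells in both sets, far more in the first than in the other. Somatostatin and PP cells were on opposite sides of insulin cells in the 2 sets. Part of the rounded somatostatin cells lay in cells 363 to 455, where their median share was 12.1%, against 7.90% in insulin cells. Mixed cells were near insulin cells in the rounded columns and below them in the others, at 8.07% and 8.01%.

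Hormone RNA took a large part of the denominator, with a median of 43.3% of RPKM in glucagon cells, 17.1% in somatostatin cells, 46.7% in PP cells, 41.3% in mixed cells and 45.1% in insulin cells. With the 5 hormone genes left out, the 10 genes took 22.3% in glucagon cells, 12.7% in somatostatin cells, 12.6% in PP cells and 14.4% in mixed cells, against 17.1% in insulin cells. Somatostatin and PP cells then stood below insulin cells, PP cells within both sets of columns. Somatostatin cells were lower in the unrounded columns, 7.32% against 16.2%, and also in the rounded ones, 14.3% against 19.0%. Glucagon cells were higher in the unrounded columns, 23.4% against 16.2%, and lower in the rounded ones, 18.0% against 19.0%. The difference between glucagon and insulin cells outside the hormones therefore has no set direction here.

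**Figure D1:**
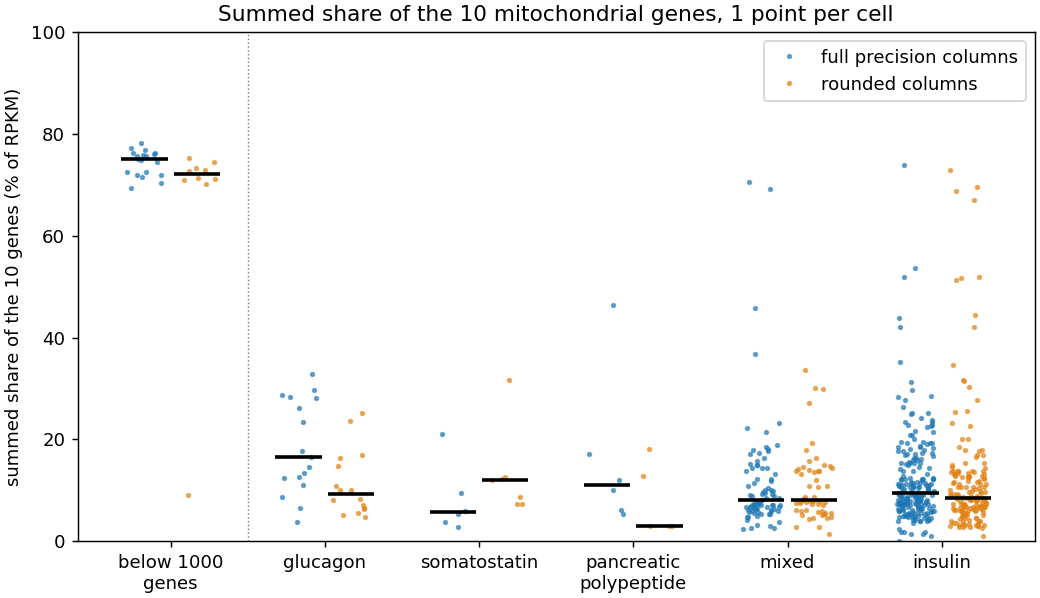
Summed share of the 10 mitochondrial genes in percent of a cell's RPKM (vertical axis) for each group of cells (horizontal axis), with 1 point per cell, colours for the column sets and a bar at the median of each set. Cells below 1000 genes lie at medians of 75.2% (full precision) and 72.1% (rounded), while the medians of the hormone groups lie between 3.04% and 16.6% and their cells overlap.

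Cells below 1000 genes were dominated by these transcripts. Their summed share had a median of 73.3% (quartiles 71.5% to 75.8%, n = 29), against 9.00% in the cells at or above 1000 genes (quartiles 6.38% to 14.2%, n = 593). The difference was found in both column sets, at 75.2% against 9.34% in the unrounded columns and 72.1% against 8.49% in the rounded ones. In 28 of the 29 cells the 10 genes held 60% or more (96.6%, exact 95% interval 82.2% to 99.9%). Only 7 of the 593 passing cells did so (1.18%, exact 95% interval 0.476% to 2.42%), of which 5 were insulin cells and 2 mixed. These intervals cover counting error only. All 37 genes of the mitochondrial genome together took a median of 89.7% below 1000 genes, against 11.0% at or above.

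The single cell below the threshold without this dominance had 991 genes, 9.02% of its RPKM in the 10 genes and 58.1% in the hormones. It was also the shallowest of all cells, at 2461 mapped reads. Without it the shares below 1000 genes ran from 69.3% to 78.2% with a median of 73.9%. Cells below 1000 genes had a median of 1785448 mapped reads, against 1095651 in the cells at or above. These numbers were worked out from the mitochondrial genes, and the part that depth plays was not tested. Because few genes in a cell leave most of its RPKM to those few, the share and the number of genes are not independent measures, and which of them leads was not tested.

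The share passed through the threshold without a step. The cells with 683, 709, 947 and 964 genes had 69.3%, 76.0%, 72.5% and 70.4% of RPKM in the 10 genes. Just above it, the cells with 1099, 1162 and 1427 genes, all insulin cells, had 68.9%, 69.7% and 72.9%. The next were an insulin cell with 1547 genes at 51.4%, a PP cell with 1568 genes at 46.4% and insulin cells with 1663 and 1724 genes at 51.7% and 73.9%. The insulin cell with 1751 genes was at 11.7%. The 7 passing cells at 60% or more had between 1099 and 3422 genes.

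Over bands of gene number the median share was 73.3% below 1000 genes (29 cells), 51.4% from 1000 to 2000 (13 cells), 12.6% from 2000 to 3000 (33 cells) and 8.65% from 3000 to 4000 (83 cells). It was 10.0% from 4000 to 5000 (125 cells), 9.38% from 5000 to 6000 (186 cells) and 7.62% at 6000 or more (153 cells). Cells 363 to 455 made up 8 of the cells from 1000 to 2000 genes, 28 from 2000 to 3000 and 33 from 3000 to 4000. Without them the medians of those bands were 68.9% (5 cells), 30.1% (5 cells) and 10.9% (50 cells). In the unrounded columns the median was lower in each further band above 3000 genes, at 15.0% (11 cells), 12.5% (43 cells), 10.3% (138 cells), then 7.56% (142 cells). The rounded columns gave 8.45% (72 cells), 8.20% (82 cells), 7.24% (48 cells) and 7.86% (11 cells). Among insulin cells, Spearman's rho between the share and the number of genes was -0.28 over 226 unrounded cells and -0.27 over 169 rounded ones, a description across cells that share libraries and depth. With mapped reads the rho was close to 0, at -0.003, in the unrounded cells and -0.17 in the rounded ones.

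**Figure D2:**
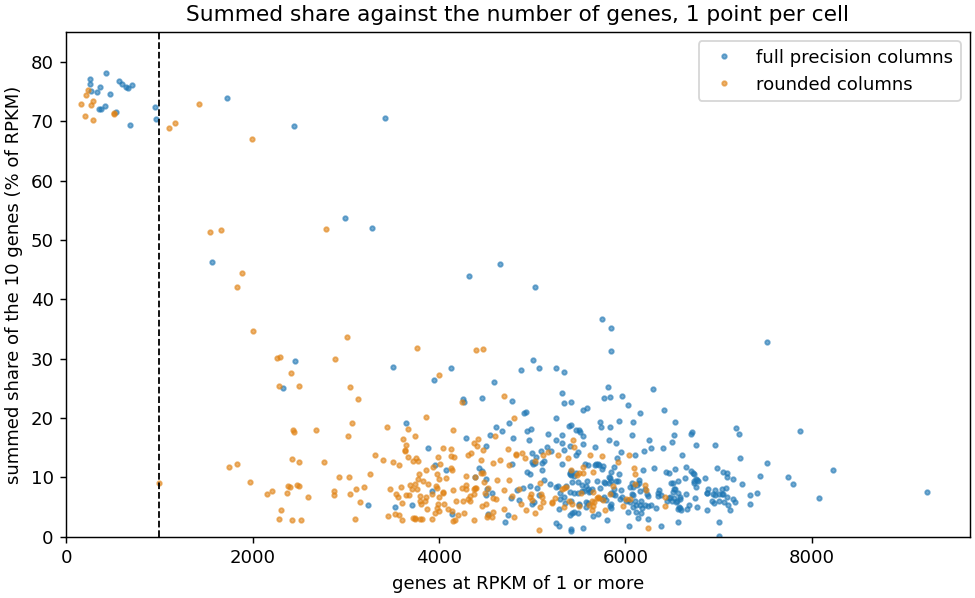
Summed share of the 10 genes in percent of RPKM (vertical axis) against the number of genes at 1 RPKM or more (horizontal axis), 1 point per cell with colours for the column sets and a dashed line at 1000 genes. All but 1 of the 29 cells left of the line lie above 60%, against 7 of the 593 cells at or right of it.

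Within the sum, the 10 transcripts kept a similar balance in every group. In glucagon, somatostatin, PP and mixed cells, all 10 medians of a gene's percentage of the 10-gene sum lay within 1.5-fold of the insulin cells' medians. The same held between cells below and at or above 1000 genes, despite the large gap in the summed share. In the rounded columns alone the number within 1.5-fold was 9 in glucagon, 8 in somatostatin and 8 in PP cells, and 9 in cells below 1000 genes. The 3 complex IV subunits took the largest part of the sum everywhere, 53.0% in cells below 1000 genes, 54.0% in glucagon, 49.8% in somatostatin, 53.4% in PP, 52.3% in mixed and 50.8% in insulin cells. The 4 complex I subunits together took 17.6% below 1000 genes, 18.8% in glucagon, 16.5% in somatostatin, 18.1% in PP, 19.2% in mixed and 20.1% in insulin cells.

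**Figure D3:**
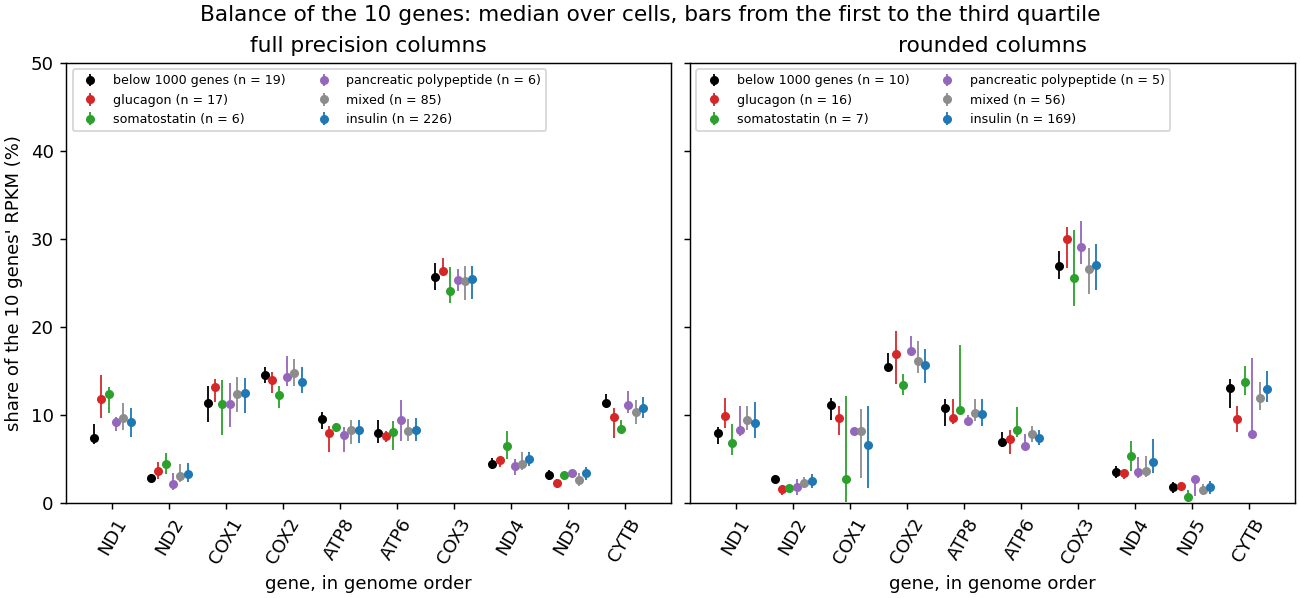
Percentage of the 10-gene RPKM sum taken by each gene (vertical axis), in genome order (horizontal axis), as the median over cells with bars over the quartiles, by group, for full-precision columns on the left and rounded columns on the right. COX3 leads every group in both panels, at 24.1% to 26.4% on the left and 25.6% to 30.0% on the right, and the widest spread between groups on the right is that of COX1, at 2.72% to 11.2%.

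COX3, a core membrane subunit of cytochrome c oxidase, was the most abundant transcript. Its RPKM had a median of 210508 in cells below 1000 genes (21768 to 292570), 22822 in glucagon cells (6257 to 62847) and 11081 in somatostatin cells (4015 to 83664). It was 14056 in PP cells (10394 to 120062), 15250 in mixed cells (1832 to 194225) and 19220 in insulin cells (208 to 224330). Cells below 1000 genes were high and the hormone groups overlapped. Its percentage of the sum was 25.9% below 1000 genes, 27.5% in glucagon, 25.1% in somatostatin, 27.0% in PP, 25.7% in mixed and 25.9% in insulin cells. COX3 was the highest of the 10 in 29 of 29 cells below 1000 genes, 33 of 33 glucagon, 11 of 13 somatostatin, 11 of 11 PP, 136 of 141 mixed and 376 of 395 insulin cells. Its quartiles did not overlap those of COX2, the second, in insulin, glucagon, somatostatin or PP cells or below 1000 genes.

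COX2, which carries the copper site that takes electrons from cytochrome c, came next. Its median was 120275 RPKM below 1000 genes (16040 to 176782), 13323 in glucagon (3163 to 30802), 8459 in somatostatin (1491 to 35944), 8366 in PP (5898 to 68580), 9424 in mixed (1085 to 124649) and 10440 in insulin cells (47.3 to 134604). It made up 15.0% of the sum below 1000 genes, 14.6% in glucagon, 13.2% in somatostatin, 17.1% in PP, 15.3% in mixed and 14.3% in insulin cells. PP cells had the highest percentage, with quartiles that overlapped those of the insulin cells. Across insulin cells COX2 and COX3 kept the steadiest ratio of all 45 pairs, with an SD of 0.41 on the log2 scale around a median of -0.84. In the unrounded columns COX3 with CYTB and COX2 with COX3 were the steadiest pairs, both with an SD of 0.32.

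COX1, which holds the heme and copper centre where oxygen is reduced, varied widely. Its median was 86665 RPKM below 1000 genes (10520 to 140067), 8682 in glucagon (636 to 29025), 3138 in somatostatin (73.5 to 24553), 4867 in PP (241 to 59674), 6584 in mixed (56.5 to 66002) and 7339 in insulin cells (25.3 to 101240). Its percentage of the sum was 11.2% below 1000 genes (quartiles 9.10% to 12.5%), 11.1% in glucagon (8.00% to 13.2%), 9.02% in somatostatin (2.72% to 14.6%), 8.37% in PP (7.82% to 11.6%), 10.8% in mixed and 11.1% in insulin cells (6.11% to 13.3%). Single cells reached as low as 0.00681%, in an insulin cell. Over all insulin cells the pair with the loosest ratio was COX1 and ND4, with an SD of 1.92 on the log2 scale. That SD was 0.77 in the unrounded columns and 0.80 without cells 363 to 455, and ND2 with ATP8 was then the loosest pair, at 0.91 and 0.98.

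Most of the low values of COX1 lay in the cells numbered 363 to 455. There COX1 took a median of 1.25% of the sum (93 cells, 0.00681% to 4.73%), against 10.0% in the 160 other passing cells of the rounded columns and 12.5% in the 340 of the unrounded columns. COX1 was under 4% in 90 of these 93 cells and in 21 of the 500 other passing cells. Insulin cells alone showed the same, at 1.42% in 72 cells of that stretch against 10.4% in the 97 other insulin cells of the rounded columns. That stretch held 1 glucagon, 4 somatostatin, 1 PP, 15 mixed and 72 insulin cells. Its part of the somatostatin group was the largest, and without it 9 somatostatin cells were left.

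Other transcripts moved in the same cells. ND5 was at 1.15% of the sum in the 93 cells, against 2.00% in the other rounded and 3.08% in the unrounded cells. ND4 was high instead, at 7.39% against 3.52% and 4.87%, and CYTB too, at 14.1% against 12.2% and 10.7%. COX3 was near the others, at 27.0% against 27.1% and 25.5%. The large ribosomal RNA mt-Rnr2 was at 2.83% of the 10-gene sum, against 9.58% and 11.3%. The transfer RNA gene TrnS1, which follows COX1 on the opposite strand, had a median of 0, against 2.14% and 2.84%.

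Insulin cells of that stretch also had fewer genes, with a median of 3547.5 against 4524 in the other rounded and 5707.5 in the unrounded insulin cells. Spearman's rho between COX1's percentage of the sum and the number of genes was 0.58 over the 169 rounded insulin cells, 0.14 without the stretch and 0.04 over the 226 unrounded ones, a description across cells that share libraries. The part that the number of genes, a chip or an animal plays in the low COX1 values was not tested. All 93 cells passed the 1000-gene threshold, so the cells below it were not touched. The rounded cells at or above it, with which those are compared, include this stretch.

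**Figure D4:**
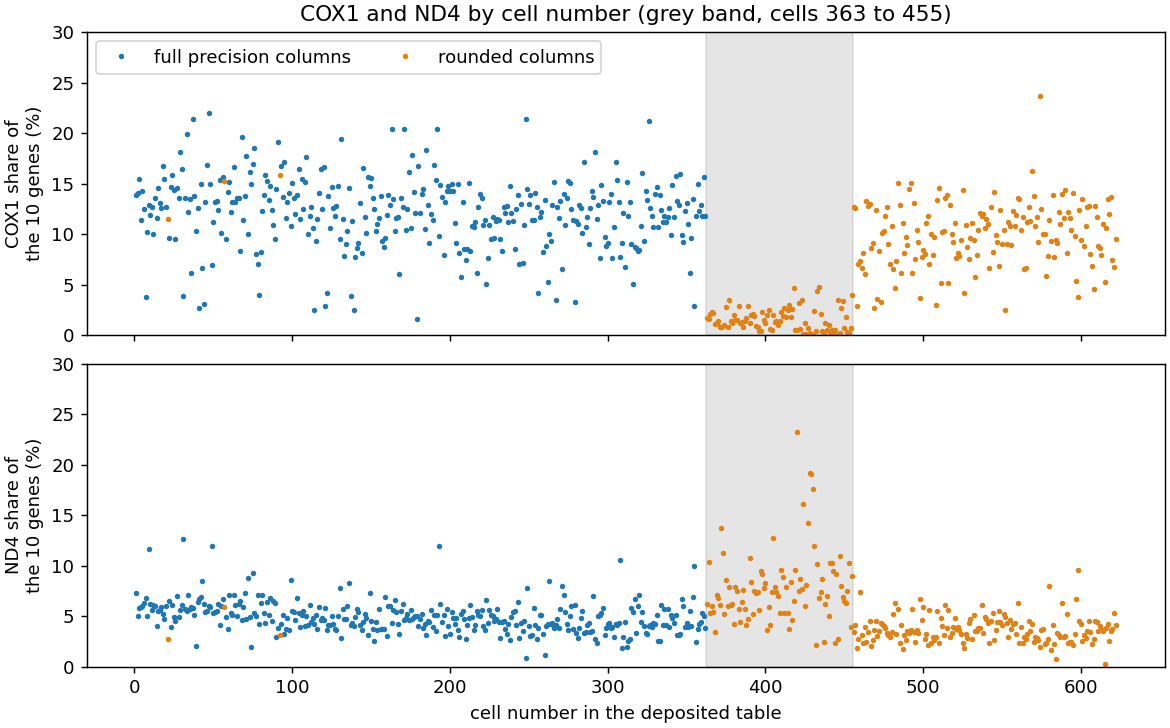
Percentage of the 10-gene RPKM sum taken by COX1 (upper panel) and ND4 (lower panel) against the cell number (horizontal axis), 1 point per cell, with colours for the column sets and a grey band over cells 363 to 455. Inside the band COX1 has a median of 1.25% and ND4 of 7.39%, against 10.0% and 3.52% in the other passing cells of the rounded columns and 12.5% and 4.87% in those of full precision.

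ND1, a membrane subunit of complex I near the quinone site, took a smaller part of the sum below 1000 genes than above, with a ratio of medians of 0.81 over all columns, 0.79 in the unrounded and 0.87 in the rounded ones. COX1 differed more than ND1 in the rounded columns, at 11.2% against 7.43%. The ND1 median was 62388 RPKM below 1000 genes (6369 to 89822), 9165 in glucagon (2279 to 26141), 4844 in somatostatin (1317 to 21030), 4800 in PP (2661 to 39387), 5950 in mixed (869 to 101337) and 6773 in insulin cells (19.6 to 91381). As a percentage of the sum it was 7.53% below 1000 genes (quartiles 6.59% to 8.83%), against 9.29% at or above (7.68% to 11.2%). Those quartiles overlapped. The percentage was 10.2% in glucagon, 9.58% in somatostatin, 9.14% in PP and 9.55% in mixed cells, against 9.07% in insulin cells. Glucagon cells were higher than insulin cells in both column sets, at 11.8% against 9.20% in the unrounded and 9.86% against 9.03% in the rounded columns.

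ND4, a proton-pumping membrane subunit, ranked eighth of the 10 in insulin cells. Its median was 32784 RPKM below 1000 genes (3833 to 49555), 3478 in glucagon (466 to 11740), 3776 in somatostatin (121 to 11265), 2669 in PP (831 to 12642), 2788 in mixed (82.3 to 49234) and 3614 in insulin cells (24.7 to 68482). Its percentage was 4.04% below 1000 genes, 4.07% in glucagon, 5.89% in somatostatin, 3.71% in PP, 4.25% in mixed and 4.87% in insulin cells. Somatostatin cells were the highest in the unrounded columns as well, at 6.50% against 5.01% in insulin cells, and in the rounded ones, at 5.30% against 4.61%. Part of the rounded somatostatin cells lay in cells 363 to 455, where ND4 was high. Inside that stretch somatostatin cells were lower than insulin cells, at 6.72% against 7.51%. The quartiles of somatostatin and insulin cells overlapped.

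ND2 and ND5, the other large proton-pumping subunits of complex I, were the least abundant. ND2 had a median of 21722 RPKM below 1000 genes (1566 to 36858), 1617 in glucagon (139 to 10410), 1377 in somatostatin (233 to 5284), 1092 in PP (351 to 18988), 1692 in mixed (120 to 30226) and 2185 in insulin cells (22.9 to 59670). ND5 had a median of 21429 RPKM below 1000 genes (1337 to 39412), 1796 in glucagon (96.2 to 8863), 659 in somatostatin (13.4 to 5885), 1332 in PP (254 to 20832), 1391 in mixed (59.7 to 26695) and 1870 in insulin cells (33.6 to 20521). Either ND2 or ND5 was the lowest of the 10 in 29 of 29 cells below 1000 genes, 32 of 33 glucagon, 10 of 13 somatostatin, 9 of 11 PP, 132 of 141 mixed and 338 of 395 insulin cells.

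ND5's percentage of the sum was 2.61% below 1000 genes, 2.24% in glucagon, 2.33% in somatostatin, 3.15% in PP, 2.11% in mixed and 2.63% in insulin cells. In the unrounded columns it was lower in glucagon cells, at 2.27% against 3.35% in insulin cells, and in the rounded columns higher, at 1.96% against 1.76%. In somatostatin cells ND5 was at 3.13% against 3.35% in insulin cells in the unrounded and at 0.622% against 1.76% in the rounded columns. Part of the rounded somatostatin cells lay in cells 363 to 455, where ND5 was at 0.112% in somatostatin and 1.31% in insulin cells. In PP cells ND5 was at 3.40% against 3.35% in the unrounded and 2.69% against 1.76% in the rounded columns. ND2's percentage was 2.80% below 1000 genes, 2.21% in glucagon, 2.55% in somatostatin, 2.08% in PP, 2.68% in mixed and 2.94% in insulin cells. It too changed sides between the sets in glucagon cells, at 3.62% against 3.28% in the unrounded and 1.57% against 2.45% in the rounded columns. ND6, the only protein gene on the other strand, whose end faces that of ND5, followed ND5 closely, with a median ratio of 0.971 over the 593 passing cells and a rho of 0.90 across them. Reads of genes on opposite strands cannot be told apart if counting ignored the strand, and the counting is not given in the sources used here.

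CYTB, the catalytic core of complex III, came after COX3 and COX2 in insulin cells. Its median was 91993 RPKM below 1000 genes (10656 to 138621), 7223 in glucagon (1976 to 28017), 6214 in somatostatin (849 to 33175), 8705 in PP (2720 to 60363), 6747 in mixed (501 to 83977) and 8712 in insulin cells (65.4 to 102575). Its percentage was 11.6% below 1000 genes, 9.79% in glucagon, 12.2% in somatostatin, 10.3% in PP, 11.0% in mixed and 11.6% in insulin cells. Glucagon cells were the lowest, in both sets of columns against insulin cells: 9.79% against 10.8% in the unrounded and 9.56% against 13.0% in the rounded columns. The quartiles of both groups overlapped over all columns.

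ATP8, a small subunit of the membrane part of ATP synthase, had a median of 77900 RPKM below 1000 genes (9959 to 114043), 6568 in glucagon (2491 to 26402), 5744 in somatostatin (1314 to 28777), 4664 in PP (2119 to 53584), 5671 in mixed (512 to 70734) and 6569 in insulin cells (0 to 168459). A single cell of the 622, an insulin cell, listed it at 0. ATP6, the subunit that forms the proton channel with the rotor, had a median of 62191 RPKM below 1000 genes (2983 to 104277), 5472 in glucagon (1716 to 19310), 4277 in somatostatin (743 to 22575), 5821 in PP (1628 to 52609), 5030 in mixed (1124.5 to 68778) and 5880 in insulin cells (17.5 to 94826). Both were high below 1000 genes and overlapped between the hormone groups. ATP8 took 9.80% of the sum below 1000 genes, 8.91% in glucagon, 10.2% in somatostatin, 8.82% in PP, 9.12% in mixed and 8.86% in insulin cells. ATP6 took 7.55% below 1000 genes, 7.55% in glucagon, 8.30% in somatostatin, 7.81% in PP, 7.99% in mixed and 7.85% in insulin cells.

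ATP8 and ATP6 lie on a single messenger RNA, but their RPKM differed by the set of columns. The median of ATP8 over ATP6 was 1.22 in the 593 passing cells, 0.985 in the unrounded and 1.39 in the rounded columns. ATP8 was the higher in 168 of 340 unrounded cells and in 243 of 253 rounded ones. In the rounded columns these were the steadiest pair of all, with an SD of the log2 ratio of 0.27 over insulin cells.

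Gm10925, whose sequence equals that of ATP6 over its 678 bases, carried even more RPKM than ATP6. Its median was 88451 RPKM below 1000 genes and 9538 in glucagon cells, against 8716 in insulin cells. The ratio of Gm10925 to ATP6 was 1.69 below 1000 genes and 1.68 at or above, 1.29 in the unrounded and 1.96 in the rounded passing cells. Its rho with ATP6 over the passing cells was 0.73 in the unrounded columns and 0.98 in the rounded ones. Since no base differs, a read inside that stretch cannot be told to come from either gene. How such reads were counted, under either gene or under both, is not given in the sources used here, so the sum of the rows may count some reads more than once.

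Adding the copy narrowed the gap between the column sets. ATP6 and Gm10925 together stood at 2.30 times ATP8 in the unrounded and 2.13 times in the rounded passing cells. Below 1000 genes this ratio was 2.01, in glucagon cells 2.18 and in insulin cells 2.22. With the copy included, the 10 genes and Gm10925 took 82.0% of RPKM below 1000 genes, against 10.1% at or above, and 13.6% in glucagon cells, against 10.1% in insulin cells. ATP6 with its copy then made up 16.8% of the 11-gene sum below 1000 genes, 17.1% in glucagon and 17.6% in insulin cells, which would place it second after COX3. COX2, COX3, ND3, part of ND4 and part of COX1 have further copies beside Gm10925 on chromosome 1. These have 0 mismatches for COX2, COX3 and the first 876 bases of ND4, 1 for ND3 and 6 for COX1. No row was found for these copies, so only ATP6 had a copy added and its place beside the other genes is an uneven comparison.

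**Figure D5:**
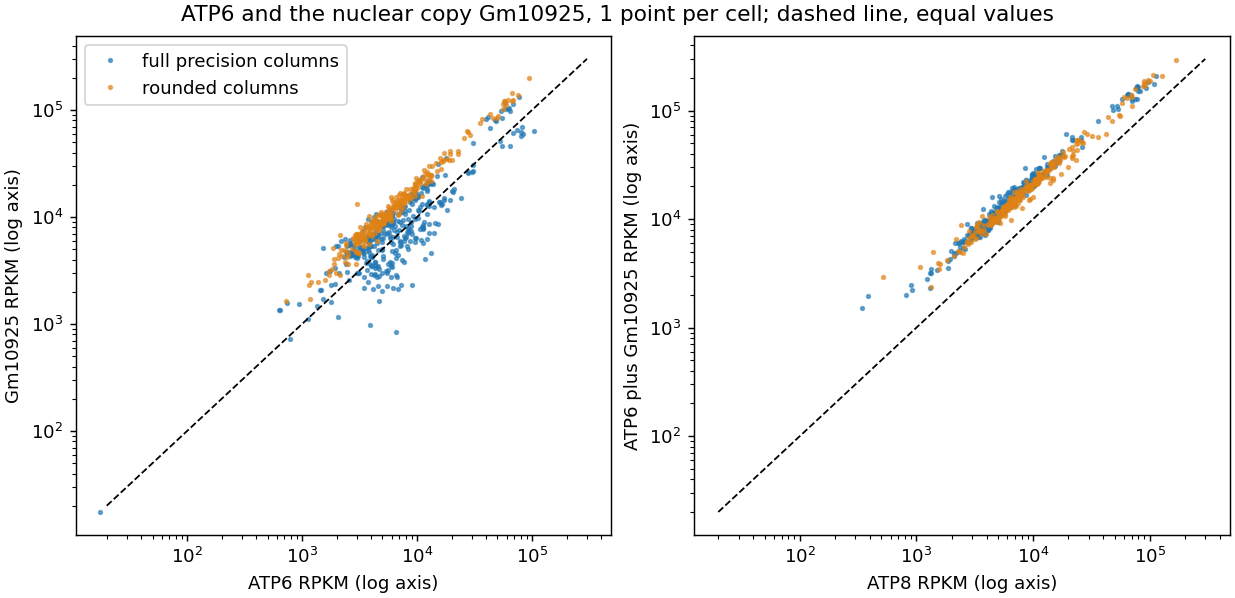
RPKM of Gm10925 against that of ATP6 (left) and of ATP6 plus Gm10925 against ATP8 (right), on log axes, 1 point per cell with colours for the column sets and a dashed line at equal values; the cell with ATP8 at 0 is left out on the right. On the left the sets part (median ratio 1.29 in full-precision and 1.96 in rounded passing cells), and on the right they lie closer (2.30 and 2.13).

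Over the 10 genes, neither length nor place on the genome ordered the levels in insulin cells. Spearman's rho of the median level was -0.33 with length and -0.04 with the start position, over 10 genes of the same libraries. In the order of percentages in insulin cells (COX3, COX2, CYTB, COX1, ND1, ATP8, ATP6, ND4, ND2, ND5), the quartiles of neighbours parted only between COX3 and COX2 and between ATP6 and ND4. Cells below 1000 genes had the same leading 4 genes in the same order, and there the quartiles of COX2 and CYTB, ATP8 and ATP6, ND1 and ND4, and ND4 and ND2 were parted too. In insulin cells the genes thus fell into COX3 alone, a middle group of 6 and a low group of 3.

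Set against all genes, none of the 10 passed 2-fold between the hormone groups over all columns. The measure was the log2 ratio of mean RPKM plus 1, over genes that averaged 1 RPKM or more on either side, and a gene was counted past 2-fold. For glucagon over insulin cells 0 of the 10 were higher, where 10.7% of 12665 genes were, and 0 were lower, where 22.6% were; the 10 ratios ran from -0.39 for ND4 to 0.25 for COX1. For somatostatin cells 0 were higher (20.0% of all genes) and 0 lower (29.1%), with ratios from -0.92 for ND5 to -0.14 for ATP8. For PP cells 0 were higher (16.0%) and 0 lower (33.2%), with ratios from -0.43 for ND4 to 0.49 for ND5. For mixed cells 0 were higher (6.50%) and 0 lower (2.23%), with ratios from -0.47 to -0.18. The median of the 10 ratios was -0.13 in glucagon, -0.55 in somatostatin, 0.06 in PP and -0.33 in mixed cells. Over all nuclear genes it was -0.20, -0.11, -0.39 and 0.10. The 10 ratios of mixed cells were thus on the low side, above only 11.8% to 26.9% of genes. All 10 were lower in mean in somatostatin than in insulin cells in both column sets, none by 2-fold. In the rounded columns the RPKM sum over all genes was lower in somatostatin cells too, with a median of 639233 against 930040. The share of the 10 was higher there, at 12.1% against 8.57%, and in the unrounded columns it was lower. In mixed cells ND1 at 0.08 and COX2 at 0.04 were higher in the unrounded columns, where the other 8 ran from -0.36 to -0.06, and all 10 were lower in the rounded ones, from -0.97 for ND4 to -0.34 for COX1.

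These ratios of means hid opposite directions in the column sets. In the unrounded columns all 10 were higher in glucagon than in insulin cells, from 0.07 for ND5 to 0.81 for ND1. In the rounded columns all 10 were lower, from -0.16 for COX1 to -1.66 for ND2, and 3 passed 2-fold (ND2, ND4 at -1.50 and CYTB at -1.04), where 29.4% of all genes did. PP cells showed the same split, from 0.27 for ND4 to 0.90 for ATP6 in the unrounded columns and from -0.57 for COX1 to -1.44 for ND4 in the rounded ones. There 4 of the 10 passed 2-fold (ND4, ND2 at -1.27, CYTB at -1.23 and ATP8 at -1.18), where 52.0% of all genes did with 5 PP cells. The first count is near the background of its comparison and the other below it. That background holds every gene averaging 1 RPKM or more and was not matched to the level of the 10. In the rounded columns the RPKM sum had a median of 647574 in glucagon and 1161070 in PP cells, against 930040 in insulin cells. The share of the 10 was higher in glucagon than in insulin cells there, at 9.18% against 8.57%. Of the 169 rounded insulin cells, 72 lay in cells 363 to 455. The part these play was not tested.

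Below 1000 genes, 10 of 10 were more than 2-fold higher than in the cells at or above, where 1.11% of 12095 genes were. The ratios ran from 2.64 for ND4 to 3.21 for COX1, which are 6.24-fold and 9.28-fold. COX3 averaged 208851 RPKM below 1000 genes, against 25815 at or above, and COX1 86617, against 9335. All 10 passed in each column set. In the other direction 95.4% of all genes were lower, which the choice of cells by gene number largely fixes.

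The nuclear-encoded partners were counted in the same way. Of 81 listed nuclear genes of complexes I to V, 79 were past the level filter in each comparison. In glucagon over insulin cells 1 was higher and 5 lower, where 10.7% and 22.6% of all genes were, with a median log2 ratio of -0.03, beside -0.20 over all nuclear genes. In somatostatin cells 3 were higher and 6 lower (20.0% and 29.1% of all genes), with a median of 0.12 beside -0.11. In PP cells 2 were higher and 15 lower (16.0% and 33.2%), with a median of -0.29 beside -0.39, and in mixed cells 0 were higher and 0 lower (6.50% and 2.23%), at 0.04 beside 0.10. In each of these comparisons the counts were below the shares of all genes, a background not matched for level. Below 1000 genes 79 of 79 were lower, where 95.4% of all genes were, at a median of -6.11 beside -2.53 over all nuclear genes. The 10 mitochondrial genes over the nuclear chain genes gave an RPKM ratio of 17737 below 1000 genes, against 5.94 at or above, and of 7.89 in glucagon, 3.63 in somatostatin, 5.16 in PP and 5.20 in mixed cells, against 6.17 in insulin cells.

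Cox6a2, the muscle-type isoform of a small cytochrome c oxidase subunit, set the hormone groups apart the most among these genes. It averaged 0.370 RPKM in glucagon cells, against 97.6 in insulin cells (log2 ratio -6.17), and reached 1 RPKM in 5 of 33 glucagon and 264 of 395 insulin cells. It averaged 0.147 RPKM in somatostatin cells, where 1 of 13 cells reached 1 RPKM, and 5.40 in PP cells, all from 1 of 11 cells. Cyc1, the cytochrome c1 subunit of complex III, averaged 12.8 RPKM in glucagon cells, against 40.0 in insulin cells. Its mean of 15.0 in somatostatin cells was 3.62 without the highest cell, and stood at 30.5 against 41.4 in the unrounded and 1.62 against 38.0 in the rounded columns. Uqcrq, a small subunit of the same complex, averaged 141 RPKM in somatostatin and 158 in PP cells, against 348 in insulin cells. In the unrounded columns it was 244 in somatostatin and 198 in PP cells, against 329. In the rounded ones it was 53.3 and 111, against 373.

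Among the others, Ndufa8, an accessory subunit of complex I, averaged 28.1 RPKM in glucagon cells, against 82.5 in insulin cells. Atp5g1, which encodes the c subunit of the ATP synthase rotor, averaged 129 RPKM in glucagon cells, against 304 in insulin cells, and was lower in both column sets, 121 against 252 and 137 against 372. Atp5e, the epsilon subunit of the same enzyme, was the gene that was higher in glucagon cells, at 652 RPKM against 289, again in both sets, 609 against 242 and 697 against 351. Several means in the small groups rested on a single cell. Ndufb7 averaged 344 RPKM in PP cells, or 92.8 without the highest cell, against 107 in insulin cells. Cox7b averaged 250 RPKM in somatostatin cells, or 81.1 without the highest cell, against 114 in insulin cells, and Atp5l 461, or 215 without its highest cell, against 211.

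Below 1000 genes the small nuclear subunits were close to absent. Ndufa1 of complex I averaged 0.900 RPKM below 1000 genes, against 510 at or above. Uqcr11 of complex III averaged 0.739, against 404, Cox6b1 of complex IV 0.786, against 245, and Usmg5 of ATP synthase 0.398, against 326. Sdhd of complex II, which has no mitochondrially encoded subunit, averaged 0.209, against 146. Nuclear-retained RNAs were low there as well: Malat1 averaged 222 RPKM, against 2252, and Neat1 1.00, against 53.8. All 3 RNAs of that list past the filter, of 5 listed, were lower, as were 95.4% of all genes. Summed beta cell markers, here with Ins1 and Ins2 included, had a median of 3878 RPKM below 1000 genes (859 to 500031, the highest in the cell with 2461 reads and 29594 in the next), against 344737 at or above. The 8 markers without the insulin genes had a median sum of 275 RPKM, against 51805.

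Of 37 nuclear genes that copy, process, stabilise or translate the mitochondrial genome, 36 or 37 were past the filter. In glucagon over insulin cells 2 were higher and 10 lower, where 10.7% and 22.6% of all genes were, with a median of -0.43 beside -0.20 over all nuclear genes. In somatostatin cells 12 were higher and 12 lower, where 20.0% and 29.1% of all genes were, with a median of -0.45 beside -0.11. In PP cells 6 were higher and 13 lower (16.0% and 33.2% of all genes), with a median of -0.55 beside -0.39, and in mixed cells 0 and 0 (6.50% and 2.23%), with a median of 0.24 beside 0.10. Lrpprc, an RNA-binding protein that stabilises mitochondrial messenger RNAs, averaged 28.3 RPKM in glucagon cells, against 13.3 in insulin cells, and reached 1 RPKM in 26 of 33 against 222 of 395 cells. Hsd17b10, a subunit of the enzyme that cuts the 5′ ends of mitochondrial transfer RNAs, averaged 10.5 RPKM in glucagon cells, against 27.6 in insulin cells. It was 16.3 against 24.0 in the unrounded and 4.35 against 32.5 in the rounded columns. Slirp, the partner of Lrpprc, averaged 591 RPKM in somatostatin cells, against 69.0 in insulin cells, and 106 without the highest cell. In the same way Mtpap, the mitochondrial poly(A) polymerase, averaged 56.4 RPKM in somatostatin cells, against 4.16, and 4.05 without its highest cell. Low-level genes of this list thus depended on single cells in the small groups.

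Among insulin cells, the genes most like the summed share were looked for over 2048 nuclear genes by Spearman's rho, with shares taken outside the hormones and, for the other gene, outside the mitochondrial genome. The median rho over these genes was -0.10 in 226 unrounded and -0.16 in 169 rounded cells. By the rho nearer 0 of both sets, the highest were the mitochondrial copies Gm10925, at 0.88 and 0.97, and Gm10222, a copy of ND4L, at 0.74 and 0.67. Then came Rn18s-rs5, a ribosomal RNA gene, at 0.38 and 0.52, Lars2, the mitochondrial leucyl-tRNA synthetase, at 0.36 and 0.30, and Gm14173 at 0.24 and 0.25. Lars2 and Gm14173 share no stretch of 25 bases with a mitochondrial gene. By the rho nearer 0 of both sets, the lowest were Pdia3, at -0.38 and -0.37, and Pdia6, at -0.35 and -0.37, protein disulfide isomerases of the endoplasmic reticulum. Ubb, a ubiquitin gene, was at -0.33 and -0.36, the lysosomal protease Ctsb at -0.34 and -0.33, and the small GTPase Cdc42 at -0.33 and -0.32. These are descriptions across cells that share libraries and depth, and a share that is high in a cell lowers the shares of the rest.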

How the data were processed

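Single-cell RNA sequencing of 622 mouse islet cells was deposited as a single table of RPKM values, which the authors made per the labels from C1 captures with SMARTer cDNA and Nextera XT libraries. The submitters' processing notes name CASAVA 1.8.2, FastQC and GRCm38 (mm10). Which aligner, counter, annotation and strand setting were used is not given in the sources used here. RefSeq matched 39725 of the 44448 Entrez IDs, and 4723 had no symbol.

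The labels put all cells in 1 group with no animal or chip, so results are medians, quartiles and ratios of means without a test. Ratios were log2((mean + 1)/(mean + 1)) of RPKM, over genes averaging 1 RPKM or more on either side, counted at 2-fold. No doublet caller was used, and cells with several hormones form the mixed group. The 10 genes and all lists were chosen with earlier results of these data known. Named nuclear genes were up to 3 per list, comparison and direction with the largest ratios and an average of 20 RPKM or more, and the 5 highest and 5 lowest by rho. Not all of those are described. Genes singled out for a single high cell were chosen after their values were seen.

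Mapped reads per cell were taken as the number that makes RPKM times length whole, within 0.05, for the 37 mitochondrial genes, and were found for 618 cells. No 2 columns were identical. Shares of cells have exact (Clopper-Pearson) 95% intervals, which cover counting error only. Scripts were tested on simulated data. Alternatives were other pseudocounts and denominators, hormone rules of 80% and 95%, estimated reads, each column set, cells left out and ATP6 with its copy added. Python 3.11.15, pandas 2.3.3, numpy 2.4.6, scipy 1.17.1 and matplotlib 3.10.9 were used.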

Additional observations from a re-analysis of the deposited data

How the results depend on the processing

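The differences of medians, the balance and the ratios were each run under their own set of alternatives. The hormone rules were applied only to the shares and the pseudocounts only to the ratios. Of the main results under alternatives planned at the start, 166 values stayed the same in direction and size, 24 moved and 12 reversed; of those chosen after seeing the data, 42, 1 and 2. Somatostatin minus insulin cells, -0.447 percentage points of summed share, was 3.51 in the rounded columns, 0.286 and 0.0388 with the hormone rule at 95% and 80%, and 0.169 with ATP6 and Gm10925 added (chosen after seeing the data). PP minus insulin cells, 0.965, was -4.45 without the hormones in the denominator, -1.21 in estimated reads, -5.53 in the rounded columns and -1.08 at the 95% rule. Glucagon minus insulin cells, 3.42, kept its direction under each alternative taken singly. With 2 of them joined, the rounded columns without the hormones, glucagon cells were lower, at 18.0% against 19.0%. Below minus at or above 1000 genes, 64.3, was 78.7 over all mitochondrial genes. The median ratio of the nuclear chain genes for glucagon over insulin cells, -0.03, was 0.20 rescaled without hormones and mitochondrial genes, 0.021 in the rounded columns and 0.0155 without cells 363 to 455 (chosen after seeing the data). For somatostatin cells, 0.12, it was -0.29 rescaled, -0.21 in the rounded columns and -0.17 as a ratio of medians.

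Counts of all genes past 2-fold moved most with a pseudocount of 10 RPKM. Glucagon higher and lower, 1354 and 2856, became 239 and 424; somatostatin, 2536 and 3693, became 1016 and 490; PP, 2035 and 4229, became 648 and 639; mixed, 831 and 285, became 106 and 17; and below 1000 genes, 134 and 11538, became 52 and 3968. A pseudocount of 0.1 gave 1370 and 641 for mixed cells. Rescaled without the hormones, glucagon higher was 2053 and mixed lower 510. Of the 10 genes, 1 was then lower in somatostatin cells, where 29.1% of all genes were lower before the rescaling. In the rounded columns glucagon higher was 2045, somatostatin lower 5647, mixed 1946 and 1331, and below higher 273 (76 in the unrounded). There 3 of the 10 genes were lower in glucagon cells (29.4% of all genes) and 4 in PP cells (52.0%). Without the cell under 100000 reads, below higher was 68. The cause of these changes was not tested.

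Estimated reads in place of RPKM moved single genes, such as ATP8 to 1.98% and COX1 to 18.8% of the sum in insulin cells. No paired analysis was possible because every cell has the same label and the results come from no test. With 11 PP and 13 somatostatin cells, split further by column set, differences of a few percentage points could not be settled. Cells of the same animal or chip cannot be told from others here.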

Other observations

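An insulin cell stood at the bottom of the summed share, with 0.0878% of its RPKM in the 10 genes. It had 7002 genes at 1 RPKM or more and 587771 mapped reads, of which 288 fell in the 10 genes. ATP8 was listed at 0 in it, COX3 took 43.0% of the 10-gene sum, and the ribosomal RNA mt-Rnr2 stood at 1409% of that sum. The next lowest cell was at 0.932%.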
